A study of Mus musculus with 16 samples.

Results

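The 10 genes described here encode proteins that join, divide or mark mitochondria for removal: Mfn1, Mfn2, Dnm1l, Fis1, Mff, Mief1, Pink1, Bnip3, Bnip3l and Fundc1. They were taken by symbol from the 19108 genes listed for quadriceps muscle of mice that overexpress the adenine nucleotide translocase Ant1 (now Slc25a4) and of wild-type mice. All 10 were found in each of the 16 libraries, and all 10 passed the filter on low counts. With both sexes averaged, 3 of the 10 were lower in the transgenic muscle, namely Fundc1 (1.39-fold), Mfn1 (1.16-fold) and Mfn2 (1.13-fold), and none was higher at the threshold used in edgeR, DESeq2 or limma-voom. Over all 13666 tested genes, 30.4% were called in edgeR and 13.3% were lower, so 3 of 10 is near the share called overall.

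Mitochondria form a network that is reshaped by opposing events. Mitofusins in the outer membrane tether and fuse neighbouring organelles, while the dynamin-related GTPase Drp1 is drawn to the surface by adaptor proteins and pinches them apart. Damaged organelles are removed by mitophagy, a form of autophagy that is started either by the kinase PINK1, which marks the organelle for ubiquitin ligases, or by receptors in the outer membrane that bind LC3-family proteins on the forming autophagosome. Skeletal muscle fibres are rich in mitochondria, and fusion, fission and removal together shape their number and form.

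Polyadenylated RNA of whole quadriceps was sequenced from C57BL/6 mice aged 6 months, per the labels. The groups were 4 WT females, 4 WT males, 4 ANT1(Tg)/+ females and 4 ANT1(Tg)/+ males, written Tg below. All had regular chow, and controls were littermates where possible. The promoter that drives the transgene is not given in the sources used here, and the 4 mice of a group are taken as its replicates.

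The receptors Bnip3 and Fundc1 carry a short stretch that binds LC3-family proteins, an aromatic residue followed by any pair of residues and then leucine. The coding sequence around it is shown because both belong to 1 class of receptor, of which Fundc1 passed the genotype test and Bnip3 did not. Capitals mark the 4 codons of the stretch, found by translating GENCODE M21 transcripts (build mm10). The 72 bases span codons 3 to 26 of Bnip3 and 8 to 31 of Fundc1, each read 5′ to 3′ on the gene's strand.
Bnip3: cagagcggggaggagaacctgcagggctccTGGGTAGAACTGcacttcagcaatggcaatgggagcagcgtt
Fundc1: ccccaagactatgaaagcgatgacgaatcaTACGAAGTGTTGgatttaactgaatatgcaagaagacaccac
The stretch begins with a tryptophan codon in Bnip3, at codons 13 to 16, and with a tyrosine codon in Fundc1, at codons 18 to 21.

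Libraries held 17.4 to 30.7 times 1000000 counts, and the 10 genes 422 to 26584 counts each per library. Slc25a4 itself, which checks the labels, stood at 2792 to 3919 counts per 1000000 (CPM) in WT and 8507 to 11044 CPM in Tg, with no overlap; the counts do not separate the transgene from the mouse's own gene. Of 8 skeletal muscle fibre genes, edgeR called 1 higher and 2 lower, where 30.4% of all tested genes were called. Myh1, the myosin of IIx fibres, was higher in Tg (log2 fold change 1.05 ± 0.30, SE). Myh4, the myosin of IIb fibres, was lower (-0.53 ± 0.13), as was Tnnt3 (-0.33 ± 0.10). Ckm, Acta1, Atp2a1, Mylpf and Myh2 were not called. DESeq2 and limma-voom each called 4 of the 8, 2 of them higher. Of 7 slow-fibre genes 5 were higher in edgeR, 4 in DESeq2, 1 in limma-voom and 2 in edgeR without Tg female 2, whose summed slow-fibre level was 1088 CPM beside 38.2 to 147 CPM in the other libraries. None of 7 adipocyte markers passed the test, but their sum ran from 172 to 3216 CPM in WT and from 174 to 1321 CPM in Tg, with WT male 1, WT female 1, WT female 2 and Tg female 4 the highest and Tg male 2 (1273 CPM) next. No marker of endothelium (5 genes), macrophages (6), fibroblasts (5), nerve and Schwann cells (5) or smooth muscle (4) passed either, and for these lists and the adipocyte list the count was 0 in edgeR, DESeq2 and limma-voom and 0 at an unadjusted p under 0.05. Of 3 brown adipocyte markers 2 were tested and not called, with Ucp1 and Elovl3 at 0 in some libraries and a sum of 201 to 321 CPM in WT female 1, WT female 2 and Tg female 4 beside 8.42 CPM at most elsewhere. Of 5 blood markers 1 was higher in edgeR, 2 in DESeq2, 1 in limma-voom and 0 in edgeR without Tg female 2. In whole muscle, fewer cells of a type and less RNA per cell cannot be told apart.

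Across 13666 tested genes, 30.4% passed the test (Benjamini-Hochberg adjusted p under 0.05, edgeR quasi-likelihood) in the genotype comparison averaged over the sexes, 17.2% higher and 13.3% lower in Tg. The 3 of 10 members called make up 30%, which is the share of all genes called. Their median log2 fold change was -0.07, beside -0.01 over all tested genes. Of the 7 that were not called, 1 was higher (Mief1) and 1 lower (Bnip3l) at an unadjusted p under 0.05. The 95% intervals of these 7 reached no further than 17.1% below and 20.3% above the WT level.

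**Figure D1:**
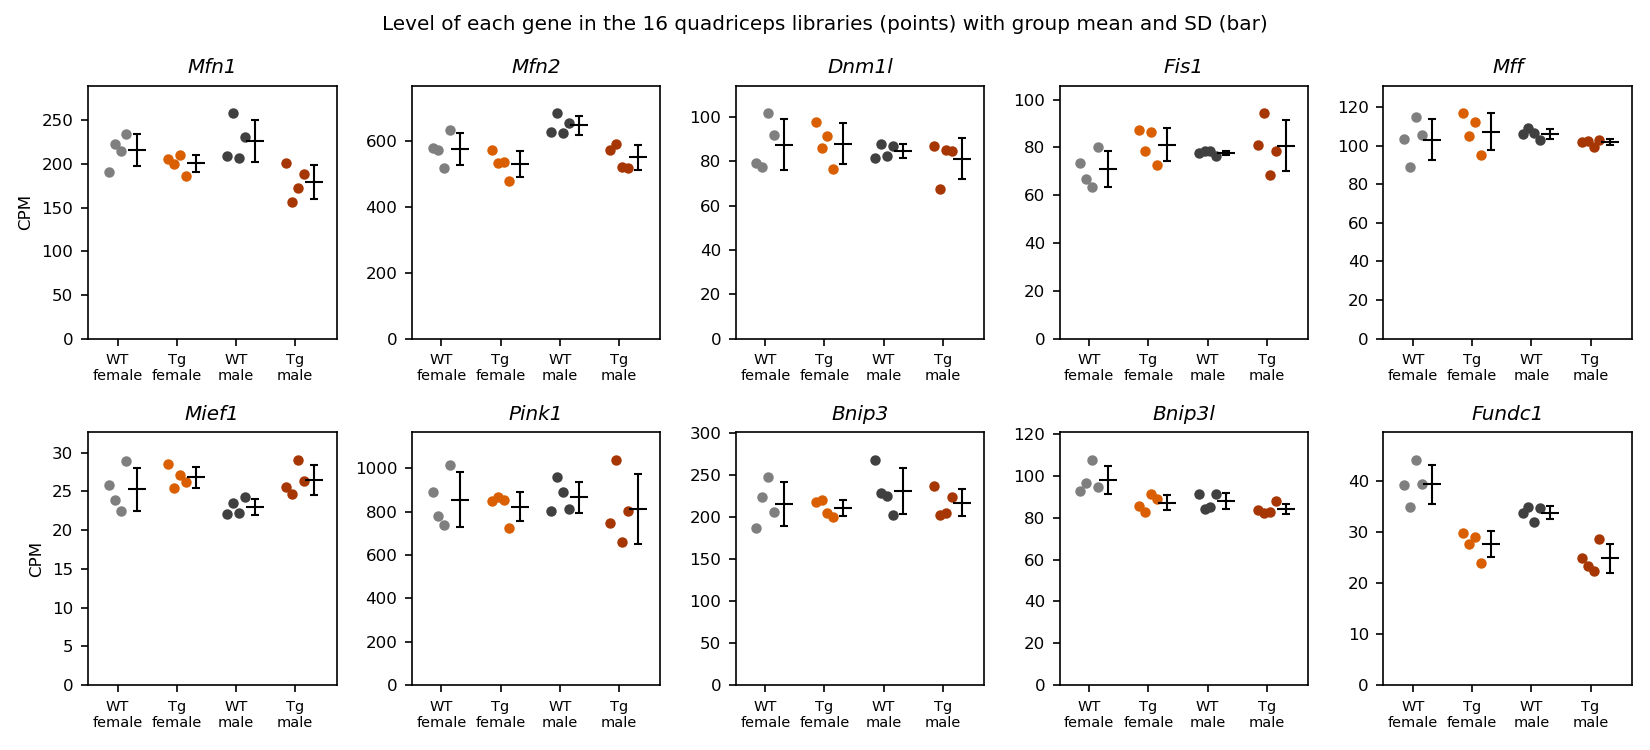
Level of each gene (CPM, linear axes from 0) in the 4 groups, with 1 point per library and a bar for the mean and SD of 4 libraries. Fundc1 is the one panel in which every Tg library, 22.5 to 29.9 CPM, lies below every WT library, 32.04 to 44.3 CPM.

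Fusion of the outer membrane is carried out by the mitofusins. Mfn1 (ENSMUSG00000027668.13, chromosome 3, 32529465 to 32579239, plus strand, mm10) encodes mitofusin 1, a GTPase that tethers neighbouring mitochondria. Mfn1 stood at 190.5, 223, 215 and 234 CPM in WT females and at 206, 199.97, 209.7 and 186 CPM in Tg females. In WT males Mfn1 was at 209, 258, 207 and 231 CPM, and in Tg males at 201, 156, 173 and 188 CPM. The groups overlapped in females, whereas in males every Tg value lay below every WT value, as for 11.7% of tested genes. Averaged over the sexes, Mfn1 fell from 221 ± 20.6 to 189.98 ± 18.3 CPM (SD, n = 8 per genotype; log2 fold change -0.22, SE 0.07, 95% interval -0.36 to -0.08, adjusted p = 0.0194 by edgeR).

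Mfn2 (ENSMUSG00000029020.13, chromosome 4, 147873599 to 147904704, minus strand) encodes mitofusin 2, which also joins mitochondria to the endoplasmic reticulum. Mfn2 stood at 577, 572, 518 and 634 CPM in WT females and at 572, 532, 536 and 477 CPM in Tg females, which overlapped. In males it was at 626, 684, 624 and 654 CPM in WT and at 573, 592, 519 and 517 CPM in Tg. Every Tg value lay below every WT value, as for 11.7% of tested genes. Over both sexes Mfn2 fell from 611 ± 52.7 to 539.8 ± 37.3 CPM (SD, n = 8; log2 fold change -0.18, SE 0.06, 95% interval -0.30 to -0.05, edgeR adjusted p = 0.0291). This call was lost when any 1 of 6 libraries was left out (WT female 4, WT male 2, WT male 4, Tg female 4, Tg male 3 or Tg male 4; edgeR adjusted p = 0.053 to 0.0646, log2 fold changes -0.17 to -0.15). When the 4 libraries rich in adipocyte markers were left out, the Mfn2 difference was as large (-0.18) and its edgeR adjusted p was 0.065.

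The proportion of the mitofusins to each other was described and not tested. Per kilobase of exon, Mfn2 stood at 3.27 ± 0.27 times Mfn1 in WT and 3.38 ± 0.47 times in Tg (SD, n = 8), a difference smaller than the spread. In females it was 3.15 ± 0.31 times in WT and 3.11 ± 0.12 times in Tg (SD, n = 4). In males it was 3.38 ± 0.20 times in WT and 3.65 ± 0.56 times in Tg, with the highest Tg male at 4.47. The promoters of this pair are shown because both genes fell: 250 bases before the RefSeq start (GRCm38.p6), on the gene's strand.
Mfn1, chr3:32529232-32529481, plus: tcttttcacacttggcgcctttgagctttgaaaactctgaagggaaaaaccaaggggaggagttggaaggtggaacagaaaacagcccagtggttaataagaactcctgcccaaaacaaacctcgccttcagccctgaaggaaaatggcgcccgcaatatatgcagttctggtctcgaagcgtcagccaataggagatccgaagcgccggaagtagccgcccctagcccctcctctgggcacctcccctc
Mfn2, first of 3 starts, chr4:147904910-147905159, minus: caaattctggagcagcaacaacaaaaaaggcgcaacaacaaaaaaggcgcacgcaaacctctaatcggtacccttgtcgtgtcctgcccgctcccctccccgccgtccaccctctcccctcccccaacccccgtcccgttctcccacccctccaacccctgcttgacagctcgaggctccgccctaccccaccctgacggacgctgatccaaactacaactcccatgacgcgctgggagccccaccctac
Neither window holds a capital, since none of 5 motifs matched on either strand. The motifs, with the share of 32536 RefSeq promoter windows that hold them, were TGATGNAAN for ATF4 with C/EBP (3.38%), ACGTG for the core of the hypoxia response element (16.7%), AAGGTCA for oestrogen-related receptors (4.09%), TGTTTAC for forkhead box O factors (3.17%) and TCACGTGA for TFEB (0.793%), which contains ACGTG. Over the 14 windows of 9 members (Bnip3l has no entry), the only motif matched was ACGTG, in Bnip3 at 108 to 103 bases before the start, overlapping on both strands, and in the last of the 3 Mfn2 windows at 39 to 35 bases before it. The Fundc1 window (17572008 to 17572257) lies inside the GENCODE gene, which ends at 17572325. The same holds for the first Dnm1l window and the second Fis1 window. Bases before the GENCODE start of Fundc1 were therefore not searched.

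Division is carried out by Drp1, the product of Dnm1l (ENSMUSG00000022789.15, chromosome 16, 16312230 to 16358959, minus strand), and by proteins that bring it to the outer membrane. None of the 4 fission genes passed the test in edgeR, DESeq2 or limma-voom, and 1 of them, Mief1, had an unadjusted p under 0.05. Dnm1l averaged 86.0 ± 7.98 CPM in WT and 84.5 ± 9.24 CPM in Tg (SD, n = 8), a log2 fold change of -0.03 with a 95% interval of -0.18 to 0.13 (edgeR adjusted p = 0.814). Its lowest library was Tg male 2 at 67.4 CPM, and its highest was WT female 3 at 101.7 CPM. Fis1 (ENSMUSG00000019054.13, chromosome 5, 136953275 to 136966234, plus strand) encodes a small outer-membrane protein. It ran from 63.2 to 80.3 CPM in WT (median 77.04) and from 68.6 to 94.3 CPM in Tg (median 79.8), with a log2 fold change of 0.12 (SE 0.07, 95% interval -0.02 to 0.27, edgeR adjusted p = 0.185). The ranges overlapped, with 4 of 8 Tg libraries above the highest WT library.

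Mff (ENSMUSG00000026150.14, chromosome 1, 82724890 to 82752394, plus strand) encodes the mitochondrial fission factor, a main receptor for Drp1. Mff averaged 104.6 ± 7.30 CPM in WT and 104.5 ± 6.998 CPM in Tg, with an interval for the log2 fold change of -0.12 to 0.11 (edgeR adjusted p = 0.987). Its log2 fold change was 0.06 in females and -0.06 in males. Mief1 (ENSMUSG00000022412.14, chromosome 15, 80234018 to 80253371, plus strand) encodes MiD51, another Drp1 adaptor. Mief1 stood at 25.8, 23.8, 22.5 and 28.95 CPM in WT females, 28.6, 25.4, 27.2 and 26.2 CPM in Tg females, 22.01, 23.4, 22.2 and 24.3 CPM in WT males and 25.6, 24.6, 29.1 and 26.3 CPM in Tg males. The ranges overlapped in females, and every Tg male lay above every WT male, as for 14% of tested genes. Averaged over the sexes the log2 fold change was 0.14 (SE 0.06, 95% interval 0.02 to 0.27, edgeR adjusted p = 0.0681), and without WT female 4 it passed (0.18, adjusted p = 0.0151).

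The mitophagy genes were led by Fundc1, the change of largest size among the 10. Fundc1 (ENSMUSG00000025040.13, chromosome X, 17556564 to 17572325, minus strand) encodes an outer-membrane receptor known for mitophagy under low oxygen, and its LC3-binding stretch is the tyrosine-led one shown above. Fundc1 stood at 39.2, 34.9, 44.3 and 39.5 CPM in WT females and at 29.9, 27.8, 29.1 and 24.03 CPM in Tg females. In males it was at 33.8, 34.97, 32.04 and 34.7 CPM in WT and at 24.9, 23.3, 22.5 and 28.8 CPM in Tg. All 8 Tg values lay below all 8 WT values, a separation seen downwards in 2.69% of tested genes. The mean fell from 36.7 ± 4.00 to 26.3 ± 2.92 CPM (SD, n = 8; log2 fold change -0.48, SE 0.07, 95% interval -0.62 to -0.34, edgeR adjusted p = 4.32e-05), which is 28.2% lower.

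Fundc1 was called under each of 25 settings, at log2 fold changes of -0.52 to -0.45. Without the 4 adipocyte-rich libraries it was -0.51 (edgeR adjusted p = 0.000164). Of the males kept, Tg males 1, 2 and 3 still had adipocyte sums of 997 to 1273 CPM. Tg male 4 had 174 CPM, and the WT males kept had 172 to 280 CPM. In females kept, the sums were 300 and 661 CPM in WT and 346 to 460 CPM in Tg. With an adipocyte marker covariate in the fit, Fundc1 was at -0.49 (edgeR adjusted p = 9.61e-06), at -0.55 in females and -0.43 in males. Beyond these fits, the part of adipocyte content in the Fundc1 result was not tested. What part the fibre-gene differences given above have in the Fundc1 result was not tested. Its relative Fundc2 was at 231 ± 25.5 CPM in WT and 208 ± 21.4 CPM in Tg (log2 fold change -0.15, edgeR adjusted p = 0.133; chosen after its values were seen). Per kilobase of exon, Fundc2 was 4.84 to 5.77 times Fundc1 in WT and 6.24 to 7.11 times in Tg, without overlap. Fundc1, the divisor, was itself without overlap, so the ratio is given only as a description.

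Bnip3l (ENSMUSG00000022051.15, chromosome 14, 66985239 to 67008877, minus strand) encodes NIX, the receptor that clears mitochondria from maturing red cells. Bnip3l stood at 93.1, 96.8, 107.96 and 94.9 CPM in WT females and 85.8, 83.05, 91.6 and 89.04 CPM in Tg females, without overlap, which held downwards in females for 7.22% of tested genes. In males it was at 91.6, 84.1, 85.4 and 91.3 CPM in WT and 83.8, 82.4, 82.95 and 87.95 CPM in Tg, which overlapped. The averaged log2 fold change was -0.12 (SE 0.04, 95% interval -0.21 to -0.02, edgeR adjusted p = 0.0558), just outside the threshold. It passed in 5 of 25 other settings: DESeq2 (adjusted p = 0.0055), edgeR with RLE size factors (0.0296) or a CPM filter (0.0445), and edgeR without WT female 4 (0.049) or the 4 adipocyte-rich libraries (0.0427).

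Bnip3 (ENSMUSG00000078566.8, chromosome 7, 138890836 to 138909519, minus strand) encodes a receptor induced by low oxygen. It ran from 187 to 269 CPM in WT (median 225) and from 201 to 237 CPM in Tg (median 212), and every Tg library lay within the WT range. Its log2 fold change was -0.06 (95% interval -0.21 to 0.08, edgeR adjusted p = 0.523). Values of Bnip3 and Bnip3l are uncertain in 1 respect: 34.4% of the 75-base stretches of Bnip3 and 16.9% of those of Bnip3l also occur in other annotated genes, for Bnip3l its pseudogene Bnip3l-ps, and how such reads were assigned is not given in the sources used here. The share was 0 for Mfn1, Mfn2, Fis1 and Fundc1.

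Pink1 (ENSMUSG00000028756.12, chromosome 4, 138313409 to 138326307, minus strand) encodes the kinase that builds up on damaged mitochondria and phosphorylates ubiquitin there. Pink1 ran from 737.2 to 1017 CPM in WT (median 852) and from 663 to 1041 CPM in Tg (median 826), so the ranges overlapped widely. Its log2 fold change was -0.07 (SE 0.09, 95% interval -0.27 to 0.12, edgeR adjusted p = 0.588). Tg males spread most, with Tg male 2 at 1041 CPM and Tg male 3 at 663 CPM.

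Within each sex fewer members passed. In females 1 of 10 was lower, where 7.57% of all tested genes were lower, and this was Fundc1 (log2 fold change -0.51, SE 0.09, edgeR adjusted p = 0.00133). In males 2 of 10 were lower, where 8.39% of all tested genes were lower, and these were Fundc1 (-0.45, SE 0.09, adjusted p = 0.00302) and Mfn1 (-0.33, SE 0.09, adjusted p = 0.0206). Mfn1 lost its call in males without WT male 2, WT male 4, Tg male 2 or Tg male 3 (edgeR adjusted p = 0.0536 to 0.0797). Mfn2 in males was at -0.23 (SE 0.08, edgeR adjusted p = 0.0588). It was called there by DESeq2 (adjusted p = 0.00679) and limma-voom (0.0491), and in edgeR with RLE size factors (0.0418), with a CPM filter (0.0477), without the 4 adipocyte-rich libraries (0.0383), and without any 1 of Tg male 2, WT female 3, WT female 4 or Tg female 4 (0.0412 to 0.0497). Mfn1 and Mfn2 in females were at -0.10 and -0.12 (adjusted p = 0.465 and 0.330).

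A genotype effect that differed between the sexes was not detected for any member. The interaction gave 0 of 10 calls in edgeR, 0 at an unadjusted p under 0.05 and 0 in DESeq2 and limma-voom, where 0.00732% of tested genes (1 gene) was called. For Mfn1 the male effect minus the female effect was -0.23 (SE 0.13, 95% interval -0.51 to 0.05), and for Fundc1 it was 0.06 (SE 0.13, interval -0.21 to 0.34). Male minus female also gave 0 of 10 calls in WT, where 3.67% of genes passed, and 0 of 10 in Tg, where 0.527% passed, by all 3 tools. At an unadjusted p under 0.05 there were 2 in WT, Bnip3l and Fundc1, both lower in males (log2 fold changes -0.16 and -0.22), and 0 in Tg.

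**Figure D2:**
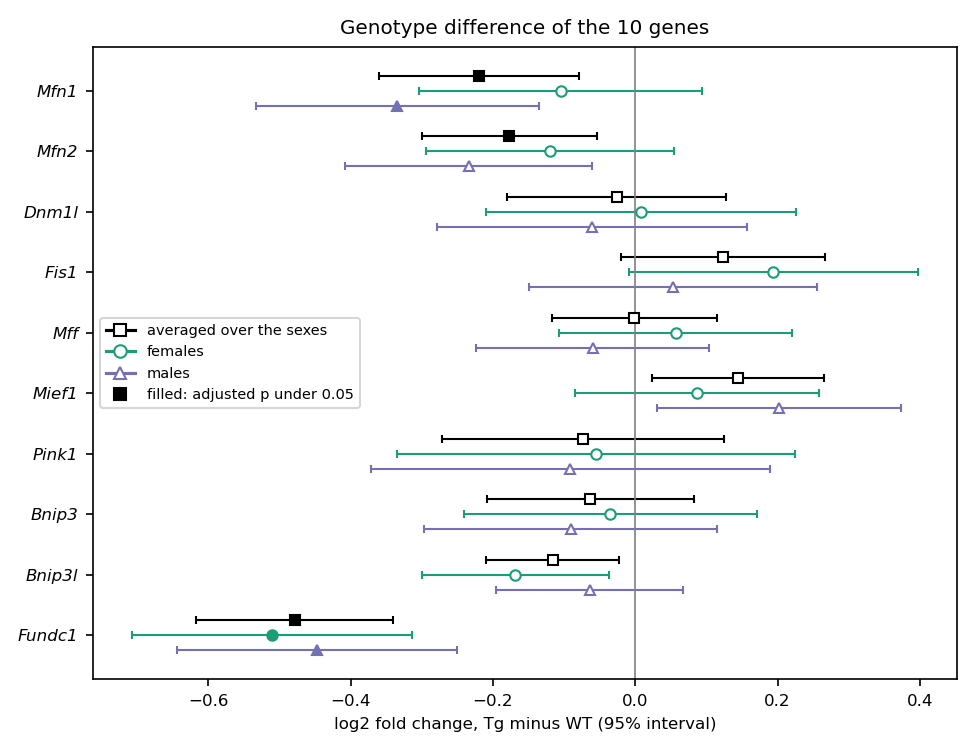
Log2 fold change of Tg minus WT (points) with 95% intervals (lines) for each gene, averaged over the sexes (squares), in females (circles) and in males (triangles), filled where the adjusted p is under 0.05. Fundc1 is filled in all 3, at -0.48, -0.51 and -0.45, Mfn1 in the average and in males, and Mfn2 in the average only.

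Levels of different genes were compared per kilobase of exon, using the combined exons of GENCODE M21, which understates genes with long alternative ends such as Mff (9757 bases) and Mief1 (8106 bases). In WT, mean levels per kilobase ran Pink1 322, Mfn2 118, Bnip3 98.9, Fis1 43.4, Mfn1 36.1, Bnip3l 24.1, Dnm1l 16.5, Fundc1 15.6, Mff 10.7 and Mief1 2.98 CPM per kilobase. Mfn2 and Bnip3 overlapped in their WT libraries, as did Fis1 and Mfn1, and Dnm1l and Fundc1; the other neighbours in this order did not. Fundc1 kept its place in this order in Tg, but its overlaps changed: it shared the range of Dnm1l in WT (13.6 to 18.8 against 14.8 to 19.5 CPM per kilobase), but in Tg it lay at 9.56 to 12.7, below Dnm1l (12.9 to 18.8) and across the range of Mff (9.73 to 11.98).

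**Figure D3:**
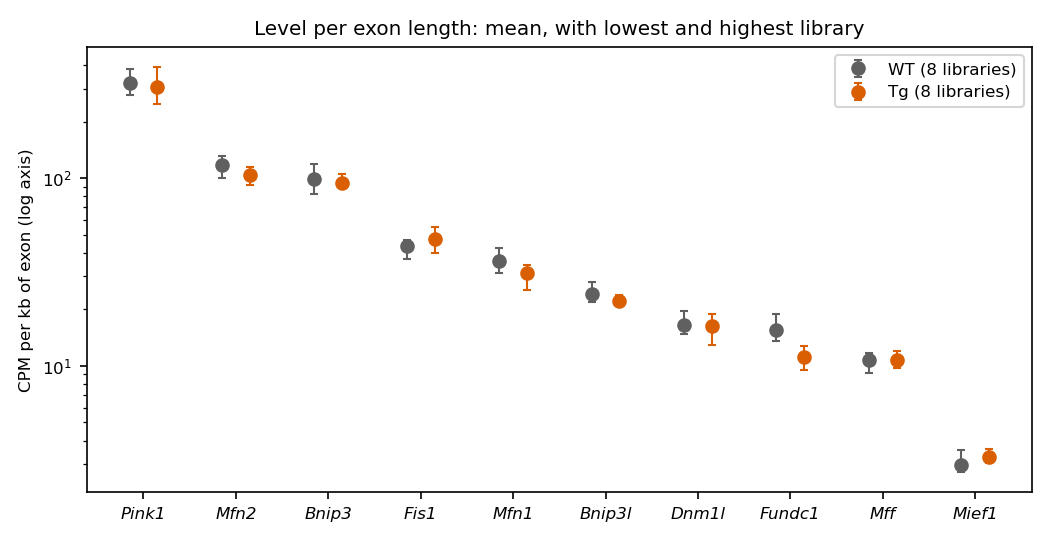
Mean level per kilobase of exon (log axis) in 8 WT and 8 Tg libraries, with lines from the lowest to the highest library, genes ordered by their overall level. Fundc1 shows the 1 gap between genotypes, with WT from 13.6 to 18.8 and Tg from 9.56 to 12.7 CPM per kilobase.

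How the members varied among libraries of 1 group was described by correlations of log2 CPM after group means were taken off (16 libraries, 45 pairs, which share libraries and depth). The median was 0.21, from -0.57 (Mfn2 with Bnip3l) to 0.89 (Fis1 with Pink1). One set held Pink1, Fis1 and Mfn2 (0.75 to 0.89 for Pink1 with each, and 0.83 for Mfn2 with Fis1), and another held Fundc1, Mff and Dnm1l (0.70 to 0.78). Over all tested genes the 3 most like Fundc1 were Arfgef1 (0.93), Rabggtb (0.92) and Ramac (0.92), whose own genotype differences were -0.63, 0.80 and 0.10 on the log2 scale. The 3 most like Pink1, the most abundant member, were Snrpc (0.95), Adssl1 (0.94) and Zswim7 (0.93).

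Beyond the 10, 58 further genes of the same processes were listed and 56 tested; Pld6 and Mtfr2 were too low. Of these, 14 were higher and 3 lower in Tg, with a median log2 fold change of 0.03. Their 17 calls make up 30.4% of the 56, the share called over all tested genes, with 25% higher and 5.36% lower beside 17.2% and 13.3% over all genes; no difference between lists was tested. The lower 3 were Gdap1, Rhot1 and Tfeb. By list, the share called was 22.2% for fusion and its proteases, 55.6% for other fission factors and 27.3% for the PINK1 pathway. It was 16.7% for other mitophagy receptors, 27.3% for cargo receptors, kinases and LC3-family genes, and 30% for transcription factors and coactivators. Each stands beside 30.4% over all tested genes.

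The lists do not separate genes that promote fusion or fission from genes that restrain them. Of 9 genes tested from the list of fusion and its proteases, 2 were higher. These were Mul1, a ubiquitin ligase of the outer membrane (1.21-fold, edgeR adjusted p = 0.00441), and Stoml2, a scaffold of the inner membrane (1.13-fold, adjusted p = 0.00824). Opa1, the GTPase of inner-membrane fusion, averaged 134.8 ± 6.71 CPM in WT and 125.3 ± 9.84 CPM in Tg (log2 fold change -0.11, edgeR adjusted p = 0.0829). Its log2 fold change was -0.03 in females and -0.19 in males (edgeR adjusted p = 0.799 and 0.0507). Of 9 genes tested from the list of other fission factors, 4 were higher and 1 lower. Dnm2, a dynamin best known for endocytosis, rose from 44.0 ± 2.93 to 75.6 ± 4.63 CPM (SD, n = 8; 1.72-fold, edgeR adjusted p = 1.74e-08), with WT at 39.4 to 48.8 CPM and Tg at 69.5 to 82.5 CPM. Mief2, the relative of Mief1, was 1.28-fold higher (adjusted p = 0.00541), Mtfr1, a fission regulator, 1.24-fold higher (adjusted p = 0.00147) and Akap1, an outer-membrane anchor of protein kinase A, 1.21-fold higher (adjusted p = 0.0273). Gdap1, an outer-membrane protein altered in a hereditary neuropathy, fell from 46.1 ± 15.4 to 29.6 ± 7.34 CPM (adjusted p = 0.0106); Akap1 and Gdap1 were chosen after their values were seen.

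Among 11 other genes of the PINK1 pathway, 2 were higher and 1 lower, while Pink1 itself was not called. Ambra1, an autophagy regulator, was 1.22-fold higher (edgeR adjusted p = 0.000124) and Pgam5, a mitochondrial phosphatase known to act on Fundc1, 1.21-fold higher (adjusted p = 0.00206). Rhot1, which encodes Miro1, an adaptor for mitochondrial transport, fell from 53.3 ± 3.75 to 47.0 ± 2.58 CPM (adjusted p = 0.0128; chosen after its values were seen).

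Of 6 other mitophagy receptors, only Phb2, an inner-membrane prohibitin, passed, at 1.31-fold higher (edgeR adjusted p = 2.97e-05). Of 11 cargo receptors, kinases and LC3-family genes, 3 were higher. Map1lc3a, an LC3 gene whose product binds the stretches shown above, rose from 130.2 ± 20.8 to 235 ± 24.1 CPM (1.81-fold, edgeR adjusted p = 7.56e-07). Gabarapl1 of the same family was 1.42-fold higher (adjusted p = 0.000617), and Sqstm1, the cargo receptor p62, 1.39-fold higher (adjusted p = 2.36e-05). 

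Of 10 transcription factors and coactivators known to act on members, 2 were higher and 1 lower. Atf4, the factor of the integrated stress response, was 2.22-fold higher (edgeR adjusted p = 1.57e-10) and Ppargc1b, a coactivator of mitochondrial genes that can raise Mfn2, 1.59-fold higher (adjusted p = 0.0142). Tfeb, a regulator of lysosomal genes, was lower (log2 fold change -0.36, adjusted p = 0.0221). Ppargc1a, a main regulator of mitochondrial content, was at 34.9 ± 4.78 CPM in WT and 33.4 ± 11.9 CPM in Tg (log2 fold change -0.10, adjusted p = 0.553). Its log2 fold change was 0.18 in females and -0.38 in males (edgeR adjusted p = 0.486 and 0.139).

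For comparison, 13 other outer-membrane genes were read, of which 5 were higher and 1 lower, with a median log2 fold change of 0.10. Their calls make up 46.2% of the 13, with 38.5% higher and 7.69% lower. Over all tested genes 30.4% were called, 17.2% higher and 13.3% lower, and no difference between lists was tested. Vdac3, a channel protein, was 1.38-fold higher (edgeR adjusted p = 8.22e-05), and the import components Tomm40 and Tomm5 were 1.34-fold and 1.22-fold higher (adjusted p = 0.000317 and 0.000237). Vdac1 was lower (log2 fold change -0.22, adjusted p = 0.00437, chosen after its values were seen). Within the sexes, Mul1, Stoml2, Mtfr1 and Mief2 passed in females only (edgeR adjusted p under 0.05). Gdap1, Rhot1 and Vdac1 passed in males only, and Akap1, Ppargc1b and Tfeb in neither sex. The other called genes named from these lists passed in both. A call in 1 sex only does not show a difference between the sexes.

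**Figure D4:**
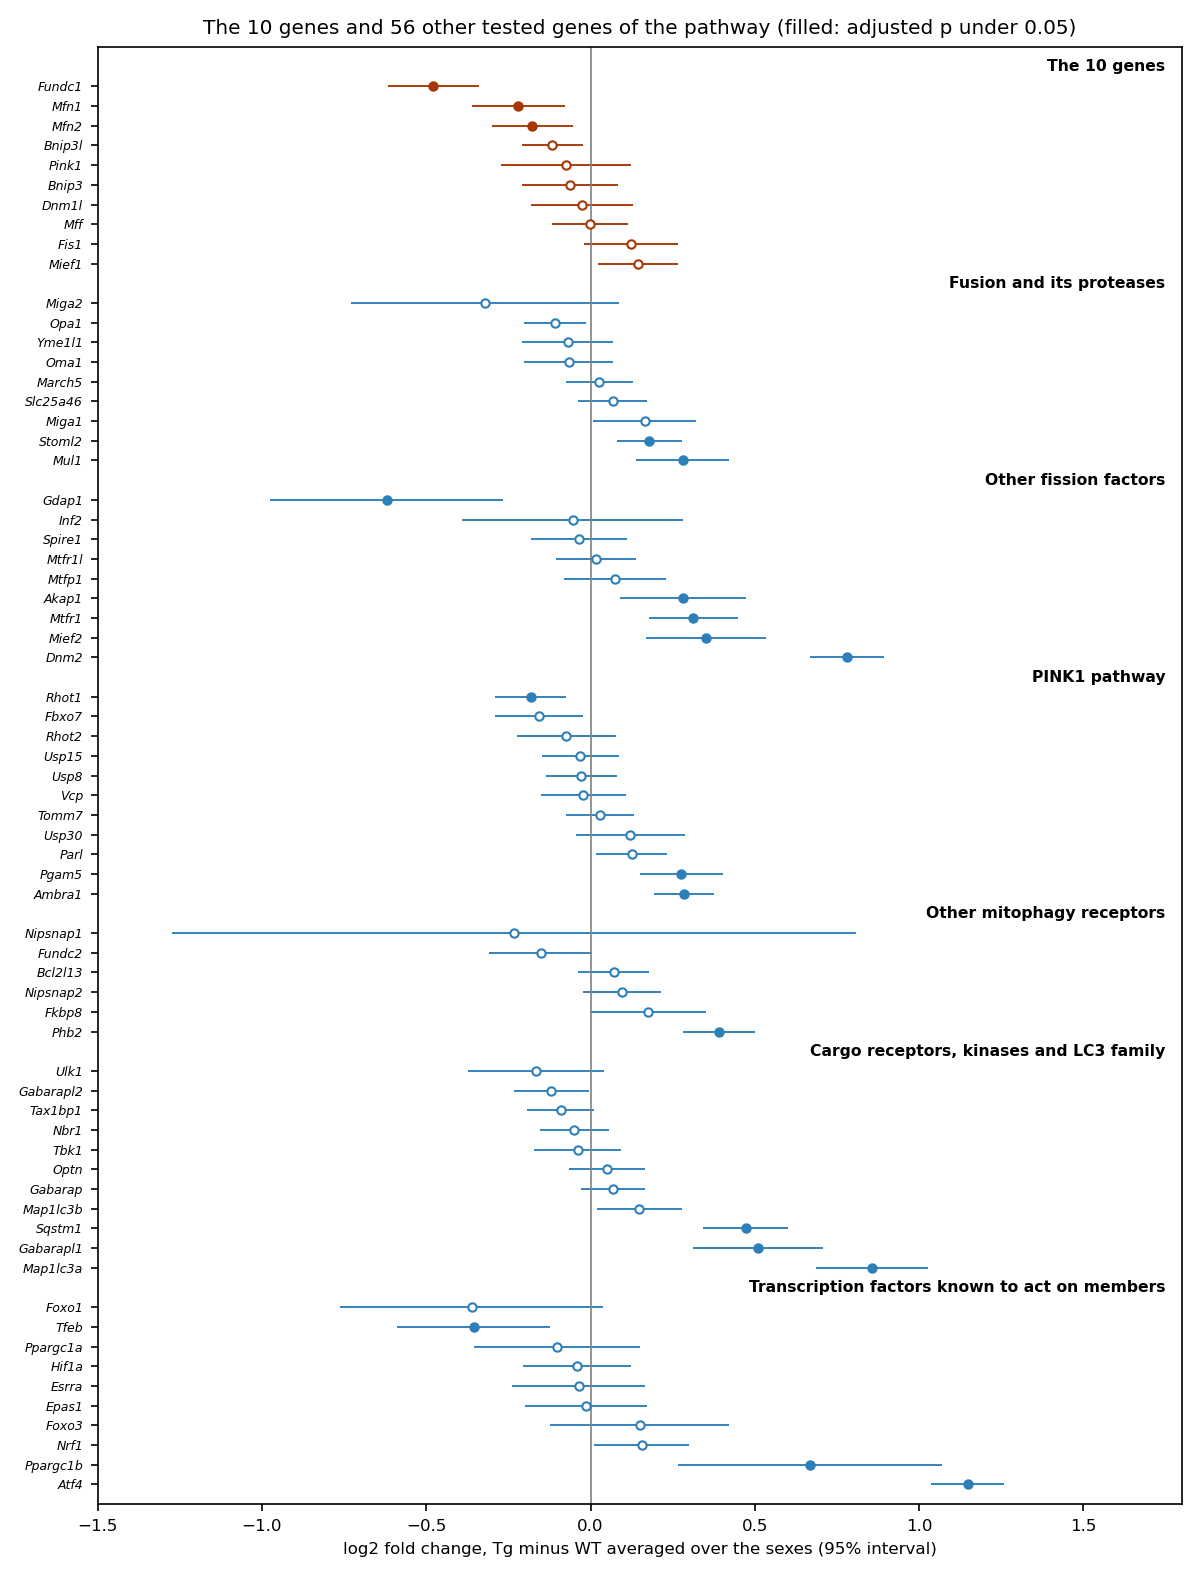
Log2 fold change of Tg minus WT averaged over the sexes (points) with 95% intervals for the 10 genes and 56 other tested genes, grouped by list and filled where the adjusted p is under 0.05. The filled points of the 10 genes, Fundc1, Mfn1 and Mfn2, lie left of 0, and 14 of the 17 filled points of the other lists lie right of it; over all tested genes 17.2% were higher and 13.3% lower, and no difference between lists was tested.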

How the data were processed

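The values deposited by the authors were taken as estimated counts (expected counts) per gene symbol, because no value is below 0, some carry decimals and library totals differ; 118 of the 160 member values lay within 0.01 of a whole number. Trimming with cutadapt 1.2.1, the aligners TopHat2 and Bowtie2, and build mm10 are named in the submitters' processing notes. How reads were counted per gene, with which annotation and strand setting, is not given in the sources used here.

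Values were rounded, which moved none by more than 0.5. Genes were kept by filterByExpr (minimum count 10, total 15), leaving 13666. Libraries were scaled by TMM (factors 0.887 to 1.10), and group means were fitted over the 16 libraries together in edgeR 4.0.16 (R 4.3.3), with a quasi-likelihood F test and two-sided p-values adjusted by Benjamini-Hochberg over all tested genes. SE was the size of the log2 fold change over the square root of F. Alternatives used DESeq2 1.42.0 and limma 3.58.1, other scalings and filters, an adipocyte covariate and libraries left out. The labels give 4 mice per sex and genotype, which were taken as replicates.

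The fit was tested on simulated data with 50 genes changed in each size. Of these, 18% were called at 1.25-fold, 54% at 1.5-fold, 80% at 2-fold and 96% at 4-fold. Of 13466 unchanged genes 2 were called. The unchanged genes were thus 13466 of 13666, whereas 30.4% of tested genes were called in the measured data. The adjusted p depends on that share, so these figures do not give the chance of a call for the members. Mfn2, for example, was called at 1.13-fold.

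The members and lists were chosen with earlier results of these data known. Named genes were the 10 members, up to 3 called genes with the smallest adjusted p of each other list, and Opa1 and Ppargc1a; 1 gene that the rule takes and 1 sequence are not reported here, and that gene is in no list count. The genes most like Fundc1 (smallest p) and Pink1 (highest level) were the 3 with the highest correlation after group means were taken off. Promoter windows are from RefSeq (GRCm38.p6) and gene models from GENCODE M21.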

Additional observations from a re-analysis of the deposited data

Results flagged for a closer look

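In 40 groups of 4 libraries (10 genes in 4 groups), the lowest or highest library was set against the others, and 2 stood apart from the rest by Dixon's 95% criterion on the gap; chance flags about 1 in 20 groups. Dnm1l in Tg male 2 was at 67.4 CPM, with the other Tg males at 84.8 to 87.04 CPM. Pink1 in Tg female 4 was at 723.9 CPM, with the other Tg females at 847 to 870 CPM. Tg female 4 was also the Tg library with the highest summed adipocyte markers, at 1321 CPM. What either library's value comes from was not tested.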

How the results depend on the processing

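No paired analysis was possible because replicate numbers follow the order of deposition and no label links mice of different groups. Of 420 recomputed values, 166 counts stayed within 1.5 times and 4 moved. The 166 include changes from 3 called members to 2 or 4, and from 2 to 3. They also include the interaction and both sex comparisons, which stayed at 0 in each of 24 settings. Of single-gene fold changes, 236 kept their side of the threshold, 8 lost a call (Mfn2) and 6 gained one (Bnip3l and Mief1). No called gene changed sign, while the uncalled Dnm1l and Mff turned from below to above 0 in 3 and 7 of 25 settings. In females, DESeq2 called 2 members (Fundc1 and Bnip3l) against 1. In males, 3 members (with Mfn2) against 2 were called by DESeq2, limma-voom, RLE factors, the CPM filter and without the 4 adipocyte-rich libraries; leaving out 1 library gave 1 to 3, with Fundc1 alone called without WT male 2, WT male 4 or Tg male 3. The averaged count was 2 to 4, at 2 without a filter on low counts (Mfn2 adjusted p = 0.0628) and 3 without the 4 adipocyte-rich libraries, where Bnip3l was called and Mfn2 was not, at a fold change as large (-0.18) over fewer libraries. Fundc1 and Mfn1 were called in 25 of 25 settings, Mfn2 in 17, Bnip3l in 5 and Mief1 in 1. The count of other pathway genes was 16 to 20. At least 422 counts lay behind each member value.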
